A study of Mus musculus with 85 samples.

Results

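The genes described here encode the protein components of the cytoplasmic ribosome. They were taken from the array's annotation as symbols that start with Rpl or Rps and a number, with Rplp0, Rplp1, Rplp2 and Rpsa added and the Rps6k kinases and pseudogenes left out, on probe sets that carry 1 symbol. This gave 50 of 18193 genes, 26 named for the large subunit and 24 for the small subunit (Rpsa among them), which lie on 17 chromosomes. Where a gene had several probe sets, the brightest by its mean across the 5 populations was read. A further 31 such symbols, among them Rplp1, Rpl3 and Rpl5, sit only on probe sets that carry several symbols and were not used. The symbol rule also took in Rps19bp1, which encodes a protein that binds Rps19 and is not itself a ribosomal subunit. It took in Rpl7l1 as well, which is known to act in ribosome assembly.

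Gene expression was measured in 85 single mouse cells on 1 Affymetrix array each, along the route by which blood stem cells arise from the vessel wall. Non-hemogenic endothelium (EC) and hemogenic endothelium (HEC), the vessel-wall cells that give rise to blood, were 7 cells each and came from the caudal region of E10.5 embryos with the eR1-GFP transgene, in which a Runx1 enhancer drives GFP. EC were GFP-negative and HEC GFP-positive, and both were CD31-positive and negative for Ter119, CD45 and CD41. Cluster cells, the blood cells that bud from the vessel wall, were wild type and sorted as c-Kit, CD31 and CD45 positive and SSEA1 negative, from the caudal region at E10.5 (28 cells) and from the aorta-gonad-mesonephros at E12.5 (16 cells). Fetal liver hematopoietic stem cells (HSC) were wild type, from E14.5, and sorted on c-Kit, Sca-1, CD150 and Mac-1, without CD48 or lineage markers (27 cells). All tissues were dissociated with collagenase. EC and HEC share genotype, stage and tissue. HEC and E10.5 cluster cells share stage and region but differ in genotype as well as in the sort, and the 3 wild-type populations differ in stage, tissue or both, so that these cannot be told apart from the population. No animal or litter is named, so a population counts as 1 sample, no test was made, and the SDs given are over cells.

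Ribosomal proteins assemble with ribosomal RNA in the nucleolus into a small subunit, which reads the mRNA, and a large subunit, which forms the peptide bond. Their mRNAs begin with a run of C and T bases, the TOP motif, through which the kinase mTOR and the RNA-binding protein LARP1 set how strongly they are translated, so mRNA level and protein output can part. Blood formation is sensitive to them: inherited loss of 1 copy of several ribosomal protein genes causes Diamond-Blackfan anemia in humans. Adult blood stem cells are known to make protein slowly, while the HSC read here are fetal.

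Such a run stood at the start of some of these genes. RefSeq promoters (GRCm38.p6, 250 bases before to 50 after the annotated start) were at hand for 44 of the 50 genes, as 52 starts. A run of at least 6 C or T bases that covered the start or reached to within 2 bases of it was present in 17 of these (32.7%), against 14.4% of all 32851 promoters in use, and the median run was 3 bases. The letters CCGGAAG, a core bound by ETS factors, stood on either strand of 40.4% of the ribosomal protein promoters, against 8.86% of all. AAGATGG, the core of the YY1 motif, stood in 15.4%, against 6.34% of all, TATAAA in 11.5%, against 13.6%, and CCAAT in 26.9%, against 37.4%. The stretches below run from 50 bases before to 25 bases from the start, 5′ to 3′ on the strand of the gene, with the run of C and T at or within 2 bases of the start in capitals. They were chosen among the members found in every cell that had a promoter in use. Rpl7a, Rpl22l1 and Rps2 had the longest runs of those whose signal was lower by over 1 log2 unit in fetal liver HSC than in E10.5 cluster cells. Rpl35, Rpl13a and Rps10 had the longest of those whose signal was not. Rps19bp1 is shown as a gene that is no ribosomal subunit.
Rpl7a, chr2:26910757-26910831, plus strand: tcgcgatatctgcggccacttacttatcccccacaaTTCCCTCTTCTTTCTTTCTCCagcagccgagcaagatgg
Rpl22l1, chr3:28805458-28805532, plus strand: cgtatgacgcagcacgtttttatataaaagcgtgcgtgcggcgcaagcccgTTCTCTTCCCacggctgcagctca
Rps2, chr17:24720013-24720087, plus strand: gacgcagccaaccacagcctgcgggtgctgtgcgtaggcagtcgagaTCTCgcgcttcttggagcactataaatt
Rpl35, chr2:39005107-39005181, minus strand: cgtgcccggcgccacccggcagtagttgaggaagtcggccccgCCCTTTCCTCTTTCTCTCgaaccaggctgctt
Rpl13a, chr7:45128721-45128795, minus strand: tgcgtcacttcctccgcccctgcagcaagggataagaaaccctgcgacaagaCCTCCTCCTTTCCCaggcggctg
Rps10, chr17:27635220-27635294, minus strand: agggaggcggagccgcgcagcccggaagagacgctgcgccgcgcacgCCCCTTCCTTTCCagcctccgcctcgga
Rps19bp1, chr15:80264282-80264356, minus strand: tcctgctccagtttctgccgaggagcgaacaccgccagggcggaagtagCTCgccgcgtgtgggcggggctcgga
The run is 21 bases long in Rpl7a, 10 in Rpl22l1, 4 in Rps2, 18 in Rpl35, 14 in Rpl13a and 13 in Rps10, and 3 in Rps19bp1. Over all measured members with a promoter in use, a run of 6 or more stood at 31.6% of the starts of genes lower by 1 or more in fetal liver HSC than in E10.5 cluster cells and at 34.5% of the starts of the other genes, and CCGGAAG at 42.1% and 41.4%.

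The cells differed in how much RNA the arrays registered. Background was set at a log2 value of 5, and the probe sets over it numbered, on average, 5905 for EC, 7712 for HEC, 9943 for E10.5 cluster, 7820 for E12.5 cluster and 6552 for fetal liver HSC. All 6 endothelial markers were found in most EC and HEC, all 6 blood markers in most cluster cells of both ages, and 4 of 5 HSC markers in most fetal liver HSC. A few cells went against their sort. Of the 5 germ-cell genes listed, EC 3 held Dppa3 (14.59), Pou5f1 (13.96) and Nanog (9.98), while Dazl and Ddx4 were at background there (2.32 each). In the E12.5 cluster, cells 3, 6 and 10 had the complement genes of macrophages, C1qa, C1qb and C1qc, with C1qb between 15.59 and 15.88. Fetal liver HSC 5 and 7 held the sinusoidal endothelial genes Lyve1 (15.05 and 14.73), Stab1 and Stab2. Fetal liver HSC arrays 20 and 21 had a correlation of 0.991, where no other pair of arrays exceeded 0.859, and were averaged as 1 cell, which leaves 84 cells.

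Ribosomal protein mRNA was found in every cell. Of the 50 genes 47 were measured, that is above background in at least 3 cells, and 37 of these, 20 of the large and 17 of the small subunit, were above background in all 84 cells. Only 1.67% of the 10694 measured genes were that constant, the 37 among them with 142 other genes. The remaining 10 measured members were Rpl12, Rpl14, Rpl27a, Rpl7l1, Rps19bp1, Rps25, Rps27, Rps27l, Rps4l and Rps6, found in 22 (Rps27) to 82 cells (Rps27l). They comprise core ribosomal proteins such as Rps6, the small-subunit protein that the S6 kinases phosphorylate, genes named after core genes (Rpl7l1, Rps27l, Rps4l), and Rps19bp1. For a core gene a dim value on its probe set cannot be told apart from a low level of its mRNA. Rpl3l, the form of Rpl3 known from striated muscle, was above background in 0 cells, Rpl39l, the form of Rpl39 known from the testis, in 1, and Rps16 in 0.

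**Figure D1:**
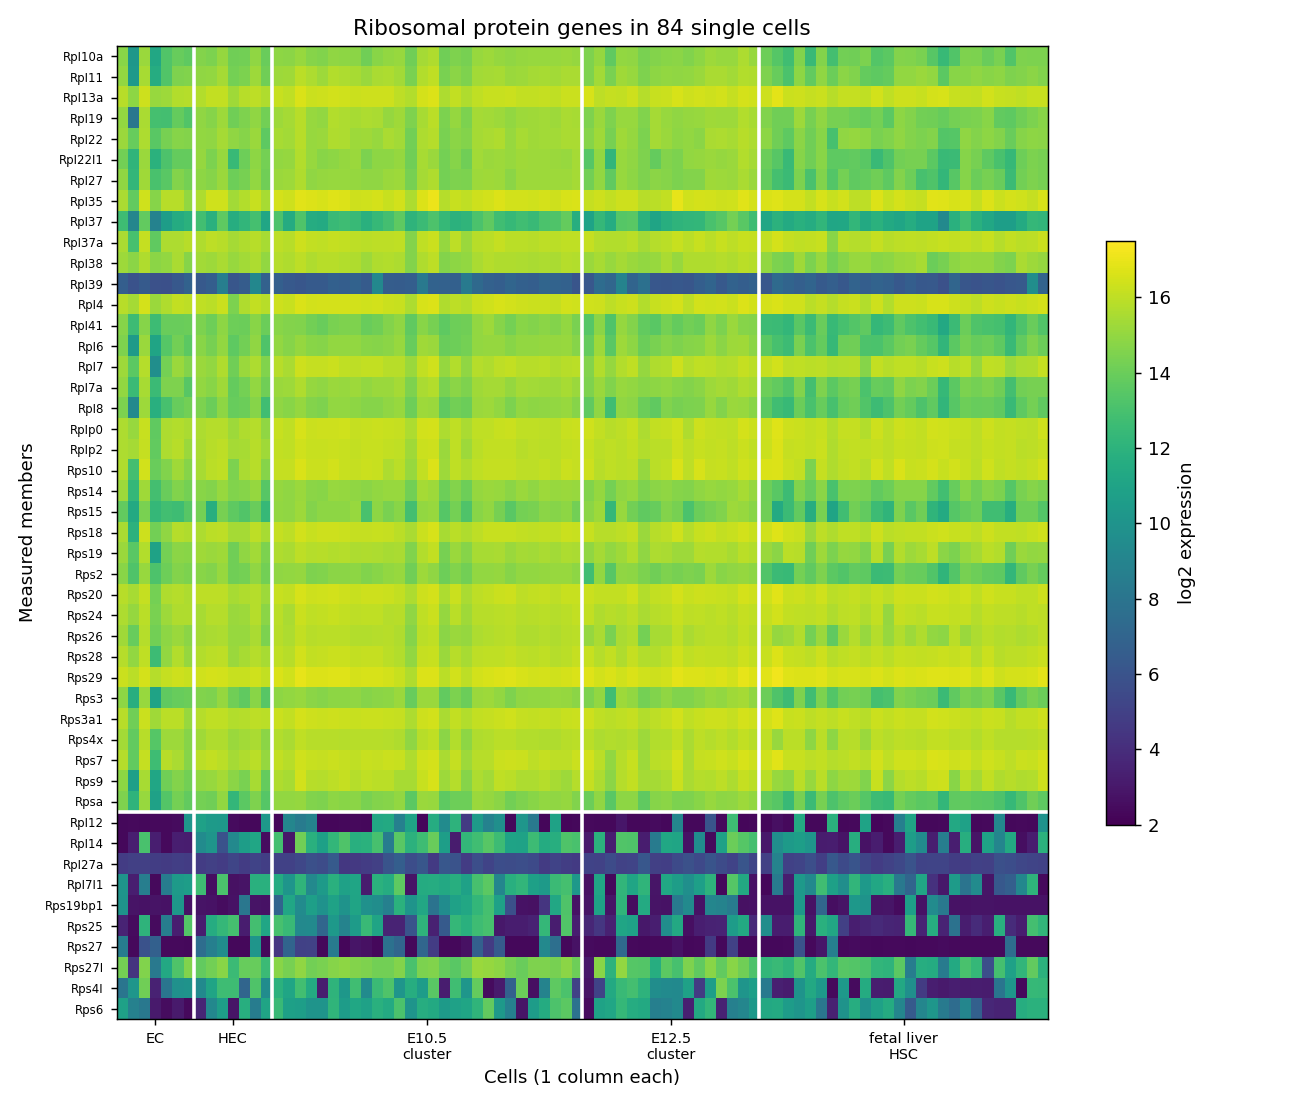
Log2 expression of the 47 measured members (rows) in 84 cells (columns, grouped by population along the route), with the 37 members above background in all cells above the white line and the other 10 below it. The upper block is bright in every cell apart from Rpl39 and Rpl37, and darker in EC 2 and EC 4, while in most rows of the lower block some cells are at background and others high. Of that block, Rps27l is above background in 82 of 84 cells and Rpl27a lies close to the threshold in most.

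The mean over the 37 constant members was 14.13 ± 1.04 in EC, 14.75 ± 0.41 in HEC and 15.22 ± 0.29 in E10.5 cluster cells, then 15.14 ± 0.30 in E12.5 cluster and 14.70 ± 0.29 in fetal liver HSC (log2, SD over 7, 7, 28, 16 and 26 cells). The lowest, median and highest cells were 12.70, 14.38 and 15.40 in EC, 14.20, 14.84 and 15.29 in HEC and 14.44, 15.28 and 15.63 in E10.5 cluster cells, then 14.46, 15.21 and 15.63 in E12.5 cluster, and 14.15, 14.75 and 15.07 in fetal liver HSC. The populations overlapped in every comparison. EC spread most, and its 2 lowest cells, EC 2 and EC 4, lay below every other cell of the series; the mean of the other 5 EC was 14.69 ± 0.48. EC 3, the cell with Dppa3, Pou5f1 and Nanog, was the highest EC. The 142 other constant genes differed more between populations, with means of 11.52 ± 1.28 in EC, 12.68 ± 0.66 in HEC and 13.07 ± 0.44 in E10.5 cluster cells, then 12.59 ± 0.90 in E12.5 cluster and 11.51 ± 0.52 in fetal liver HSC.

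**Figure D2:**
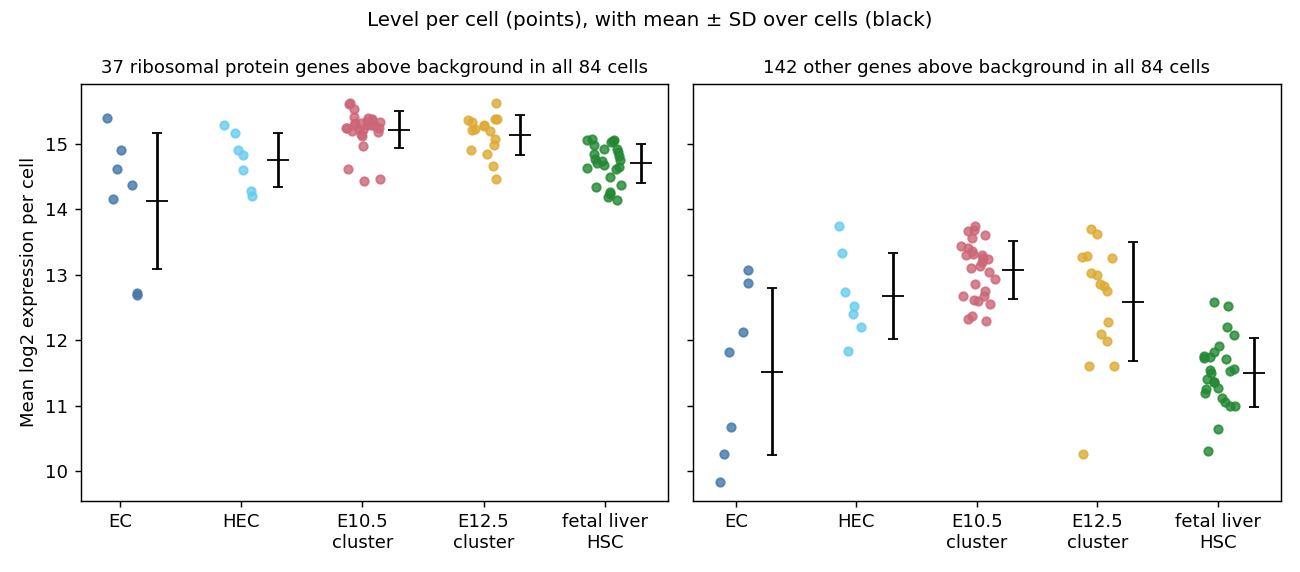
Mean log2 expression per cell over the 37 ribosomal protein genes (left) and the 142 other genes (right) that were above background in all 84 cells, by population. Points are cells, and black marks give the mean ± SD over cells. Fetal liver HSC lie 0.52 log2 units below E10.5 cluster cells on the left, with 20 of 26 HSC inside the range of the cluster cells, and the 2 lowest points on the left are EC 2 and EC 4.

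Ribosomal protein signal as deposited was somewhat higher in HEC than in EC. The median difference over the 47 members was 0.62, against 0.82 over all measured genes, and 45 of the 47 were above 0. Of the members 13 were higher in HEC by 1 or more (a factor of 2 or more) and 1, Rps19bp1, was lower, where 45.9% of all measured genes were higher and 7.36% lower. Of the 37 constant members, 6 were higher by 1 or more and none was lower. Rpl19, a large-subunit protein, had lowest, median and highest values of 14.16, 14.68 and 15.25 in HEC, against 8.14, 13.26 and 15.55 in EC, a difference of 1.57. The EC range enclosed the HEC range here. Rpl4, a core large-subunit protein, was at 15.74 ± 0.59 in HEC, against 15.81 ± 0.43 in EC. Among the members not found in all cells, Rpl14 exceeded background in 6 of 7 HEC and in 1 of 7 EC, which was EC 3 (a difference of 4.01), Rpl12 in 4 against 1 (3.51), Rps25 in 5 against 3 (3.10) and Rps6 in 5 against 3 (2.66). These counts rest on few cells. Without EC 2 and EC 4 the members' median was 0.07 and 5 members were higher in HEC by 1 or more, without EC 2 alone 6, without EC 4 alone 7, and without EC 3 there were 20. The direction was not stable under scaling: with all cells brought to equal median signals the members' median was -0.36, with 5 higher and 2 lower, where 26.6% of all genes were higher and 30.7% lower. After quantile normalization it was 0.08, with 4 higher and 3 lower, where 25.4% were higher and 21.6% lower.

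From HEC to E10.5 cluster cells the constant members were slightly higher as deposited, and a few other members were found in more of the cells. Of the 37 constant members 36 were above 0, with a median of 0.44 beside 0.45 for the 142 other constant genes. In the mean over the 37, 13 of 28 E10.5 cluster cells lay above every HEC. The median over the members was 0.46 for E10.5 cluster minus HEC, against 0.71 over all measured genes. By 1 or more, 5 members were higher and 2 lower, where 43.1% of all genes were higher and 15.7% lower. Among the 37 constant members only Rps15, a small-subunit protein, was higher by 1 or more, with lowest, median and highest values of 12.84, 14.76 and 15.24 in E10.5 cluster cells, against 11.70, 13.65 and 14.34 in HEC. Rps19bp1 exceeded background in 24 of 28 E10.5 cluster cells, against 1 of 7 HEC, a difference of 5.78 (4.28 after quantile normalization). Rpl14 exceeded background in 26 of 28 E10.5 cluster cells, against 6 of 7 HEC, with medians of 12.26 and 9.49. Rps6 had medians of 10.99 in E10.5 cluster cells and 9.26 in HEC, and Rpl7l1, named after Rpl7, was found in 26 of 28 and 4 of 7 cells. Rps27 and Rps25 were lower in E10.5 cluster cells by 1.64 and 1.26. With equal median signals the members' median was 0.97, beside 1.22 over all genes, with 21 higher and 1 lower, where 56% of all genes were higher and 11.5% lower. After quantile normalization it was 0.10, with 4 higher and 5 lower, where 27.8% were higher and 22.8% lower.

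Between the E12.5 and E10.5 cluster cells the constant ribosomal protein genes were nearly level. The median over all 47 members was -0.09, against -0.66 over all measured genes, and without the 6 cells that went against their sort it was 0.01. The contrast with all genes depended on the setting. Over all measured genes the median was -0.06 by median over cells and 0.0008 after quantile normalization. None of the members was higher at E12.5 by 1 or more and 8 were lower, where 5.47% of all genes were higher and 39.9% lower. All 8 belonged to the 10 members not found in every cell. The 37 constant members lay between -0.34 (Rpl22l1) and 0.10 (Rpl13a) with a median of -0.06, beside -0.48 for the 142 other constant genes, and their quantile-normalized median was 0.01. Rpl12 was above background in 3 of 16 E12.5 cells, against 16 of 28 E10.5 cells (a difference of -3.11), and Rps19bp1 in 8 of 16, against 24 of 28 (-2.995). Rpl14 was found in 11 of 16 and 26 of 28 cells (-2.54), Rpl7l1 in 11 and 26 (-2.18), and Rps25 in 6 and 19 (-2.15). The number of probe sets above background was lower at E12.5 in the same cells, 7820 against 9943; its part in these differences was not tested. After quantile normalization 2 members were higher and 6 lower, where 15.1% of all genes were higher and 18.9% lower. The 2 higher were Rpl27a and Rpl39, both dim, with means of 5.42 and 6.85 at E12.5 as deposited.

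**Figure D3:**
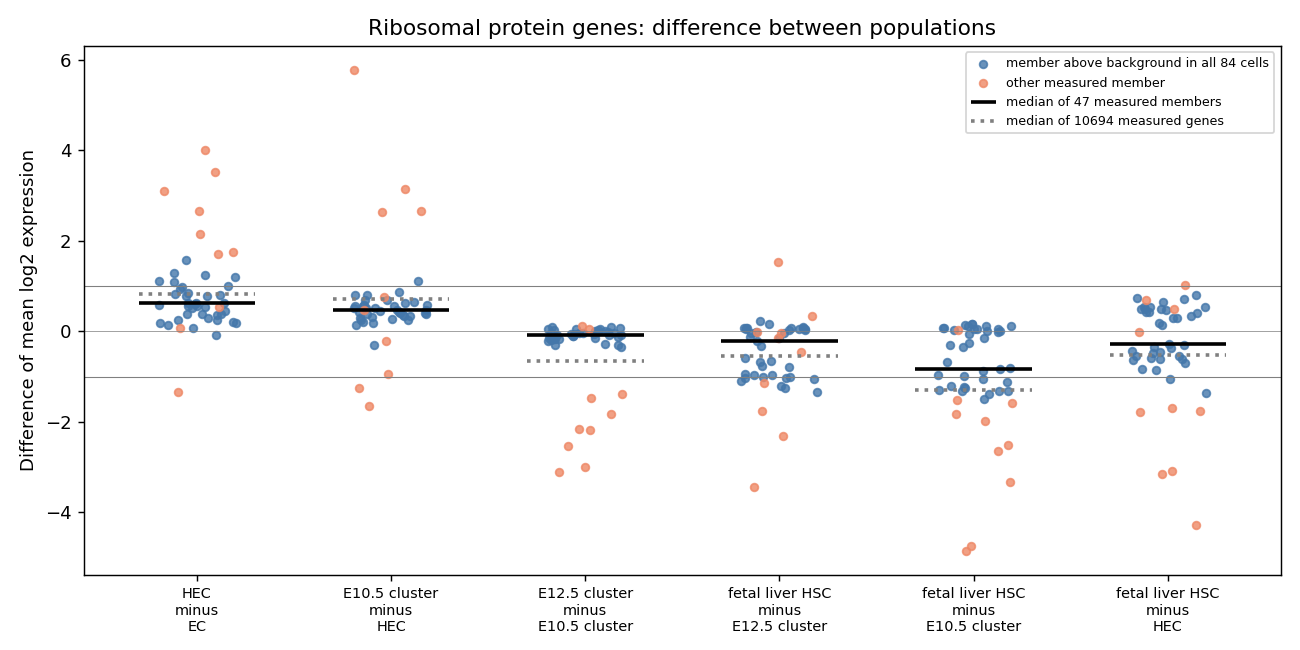
Difference of mean log2 expression for each of the 47 measured members in the 6 comparisons, in blue for members above background in all 84 cells and in orange for the other 10, with the members' median (black), the median of 10694 measured genes (dotted) and grey lines at 1 and -1. In E12.5 minus E10.5 cluster the blue points lie close to 0 while 8 orange points lie below -1, and in fetal liver HSC minus E10.5 cluster the blue points form an upper group near 0 and a lower group near -1. After quantile normalization no blue point was below -1 in the last 3 comparisons, and the members' medians for the last 3 comparisons were above 0.

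In fetal liver HSC the ribosomal protein genes divided. Against E10.5 cluster cells the median over the members was -0.83, beside -1.29 over all measured genes; none was higher by 1 or more and 20 were lower, where 5.01% of all genes were higher and 55.5% lower. Of the 37 constant members 11 were lower by 1 or more: Rpl22l1, Rpl27, Rpl37, Rpl41, Rpl6, Rpl7a, Rpl8, Rps15, Rps2, Rps3 and Rpsa. Rpl41, the shortest ribosomal protein, had lowest, median and highest values of 11.34, 12.97 and 14.01 in fetal liver HSC, against 13.63, 14.54 and 15.21 in E10.5 cluster cells, a difference of -1.50. Rps15 had 11.08, 13.39 and 14.48 in fetal liver HSC, against 12.84, 14.76 and 15.24 in E10.5 cluster cells (-1.38). Rps2 had 12.13, 13.68 and 14.52, against 14.09, 14.94 and 15.22 (-1.32). In these 3 genes the upper HSC overlapped with the lower cluster cells. Other members differed by little. Rps7 had 15.75, 16.23 and 16.79 in fetal liver HSC, against 15.25, 16.16 and 16.50 in E10.5 cluster cells (0.16), and Rps29 had 16.31, 16.66 and 17.18, against 15.67, 16.57 and 16.91 (0.15).

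Against E12.5 cluster cells 1 member, Rpl12, was higher in fetal liver HSC by 1 or more and 13 were lower, where 7.91% of all genes were higher and 36.9% lower, with a median of -0.22 beside -0.53. Against HEC 1, Rps19bp1, was higher and 8 were lower, where 14.3% were higher and 39.3% lower, with a median of -0.27 beside -0.51. These comparisons share the HSC and are not independent of each other or of the one with E10.5 cluster cells. Without the 6 cells that went against their sort, 19 members were lower against E10.5 cluster cells (median -0.76), 15 against E12.5 cluster cells (-0.39) and 8 against HEC (-0.17). Rps4l, a copy of the X-linked Rps4x, was above background in 12 of 26 HSC, against 14 of 16 E12.5 cluster cells, 23 of 28 E10.5 cluster cells and 7 of 7 HEC, and lower in HSC by 3.45, 3.33 and 4.27. Its HSC median was 4.02, against 10.70, 11.27 and 11.06 in those populations, and it was lower in HSC after quantile normalization too, by 2.38, 1.43 and 2.74. Rpl14 was found in 13 of 26 HSC, against 26 of 28 E10.5 cluster cells (-4.85), and Rps19bp1 in 7 of 26, against 24 of 28 (-4.75). Rps27l, which p53 is known to induce, was above background in all 26 HSC but at a median of 12.23, against 14.48 in E10.5 cluster cells (-2.52). Quantile normalization gave members' medians of 0.04 against E10.5 cluster cells (2 higher and 5 lower, where 20.3% and 25.8% of all genes were), 0.07 against E12.5 cluster cells (4 and 3, where 17.3% and 19.2% were) and 0.17 against HEC (4 and 4, where 25.1% and 24.2% were). The 2 higher against E10.5 cluster cells were the dim Rpl27a (3.21) and Rpl39 (3.08), which differed by 0.03 and -0.25 as deposited. Equal median signals gave 0.25 against HEC, with 13 higher and 6 lower, where 24.8% of all genes were higher and 30.1% lower.

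The division in fetal liver HSC followed the signal of the probe set. Of the 37 constant members, the 19 with a mean over populations of 15.10 or more had a median of 0.06 for fetal liver HSC minus E10.5 cluster, with 0 lower by 1 or more, and the 18 below it had a median of -1.16, with 11 lower. That mean, which also ranks the probe sets of a gene below, includes both populations compared. A low value in HSC lowers it, so level and difference were not independent. The subunits differed in the same way: the 20 large-subunit members had a median of -0.85 and the 17 small-subunit members 0.01, but 12 of the 20 and 6 of the 17 were on the dimmer side. Among the dimmer members the medians were -1.16 for the large and -1.15 for the small subunit, and among the brighter ones 0.03 and 0.07. The same appeared within genes. For 17 members with 2 or more probe sets above background in all cells, 48 probe sets together, the brightest probe set had a median difference of 0.01 and the dimmest -1.03, and the dimmest was the lower of the pair in 14 of 17 genes. By 1 or more, 3 genes were lower on their brightest and 9 on their dimmest probe set. Rps7 differed by 0.16 on its brightest probe set and by -0.88 on the other, Rpl7, a large-subunit protein, by 0.01 and -1.31 at the extremes, and Rps18 by 0.01 and -1.19. Whether a given ribosomal protein counted as lower in HSC therefore depended on the probe set read. Between E12.5 and E10.5 cluster cells, the medians were -0.05 on the brightest and -0.10 on the dimmest probe sets. The dimmest was the lower of the pair in 13 of 17 genes there too, so the direction was shared and the size was not. For fetal liver HSC minus E12.5 cluster and minus HEC it was also the lower in 13 of 17. It was not so in the other comparisons, with 7 of 17 for HEC minus EC and 8 of 17 for E10.5 cluster minus HEC.

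**Figure D4:**
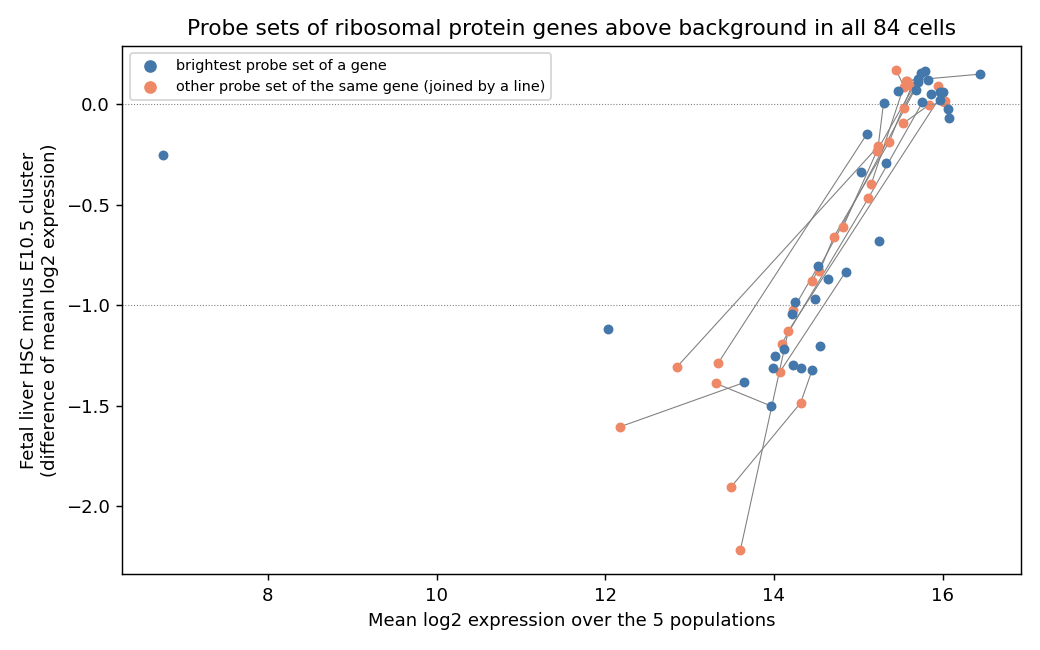
Fetal liver HSC minus E10.5 cluster difference of mean log2 expression against the mean over the 5 populations for the probe sets of members that were above background in all 84 cells, with the brightest probe set of each gene in blue, its others in orange and lines joining the probe sets of 1 gene. Above a mean of about 15 the points lie near 0, and below it most lie at or under -1 also where the gene's brightest probe set is near 0. The mean includes both populations compared, so the axes are not independent. After quantile normalization 0 of the 37 members were lower by 1 or more, while Rpl39, on a dim probe set, was higher by 3.08 (-0.25 as deposited).

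Genes of the machinery that makes ribosomes had large differences in the same comparisons. Of 39 measured ribosome biogenesis genes, which process ribosomal RNA and assemble the subunits, 34 were higher by 1 or more in E10.5 cluster cells than in HEC, with a median of 2.65, where 43.1% of all genes were higher. Against E10.5 cluster cells 38 of the 39 were lower by 1 or more at E12.5, with a median of -3.22, and 38 of 39 in fetal liver HSC, with a median of -4.39, where 39.9% and 55.5% of all genes were lower. The 47 members had medians of 0.46, -0.09 and -0.83 in these 3 comparisons, and the 10 members not found in every cell 0.61, -1.99 and -2.24. None of the 39 biogenesis genes was above background in all cells, so they have no counterpart to the 37 constant members, which were selected for that and are mostly bright. Under quantile normalization the 3 medians of the biogenesis genes were 1.95, -2.38 and -2.50. Dkc1, the pseudouridine synthase of box H/ACA particles, averaged 9.65 in HEC, 12.88 in E10.5 cluster, 8.83 in E12.5 cluster and 6.26 in fetal liver HSC, and Ncl, nucleolin, 10.95, 14.44, 12.29 and 12.32. RNA polymerase I and III genes (19 measured), which make ribosomal and transfer RNA, had medians of 2.30, -1.66 and -2.72 in the same 3 comparisons. The 76 mitochondrial ribosomal proteins had 2.47, -1.98 and -3.91. Myc, which drives ribosome biogenesis genes, averaged 10.60 ± 3.37 (SD over 28 cells) in E10.5 cluster cells, against 4.43 in HEC, and was lower by 4.13 at E12.5 and by 5.50 in fetal liver HSC; Mycn was higher in fetal liver HSC by 3.63.

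Translation factors were read in the same comparisons. The 14 genes of elongation and other TOP mRNAs had medians of 0.76, -0.38 and -1.45 in the 3 comparisons, with 10 of 14 lower by 1 or more in fetal liver HSC than in E10.5 cluster cells, where 55.5% of all genes and 110 of the 142 other constant genes were lower. Tpt1, a TOP mRNA, differed by 0.19 and Eef1a1, the elongation factor that brings tRNA to the ribosome, by -0.29, while Eef2, the translocation factor, differed by -1.70. The 18 initiation factors had medians of 1.21, -0.93 and -2.93, and the cap-binding factor Eif4e was lower in fetal liver HSC than in E10.5 cluster cells by 5.09. The 11 growth regulators had medians of 1.50, -1.17 and -2.81, the 8 housekeeping genes 0.40, -0.49 and -1.97, and the 9 p53 targets 1.64, -0.62 and -2.06 (0.46, 0.25 and 0.23 after quantile normalization). Fau, the 1 ribosomal protein gene measured outside the symbol rule, differed by 0.69, 0.12 and -1.32.

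**Figure D5:**
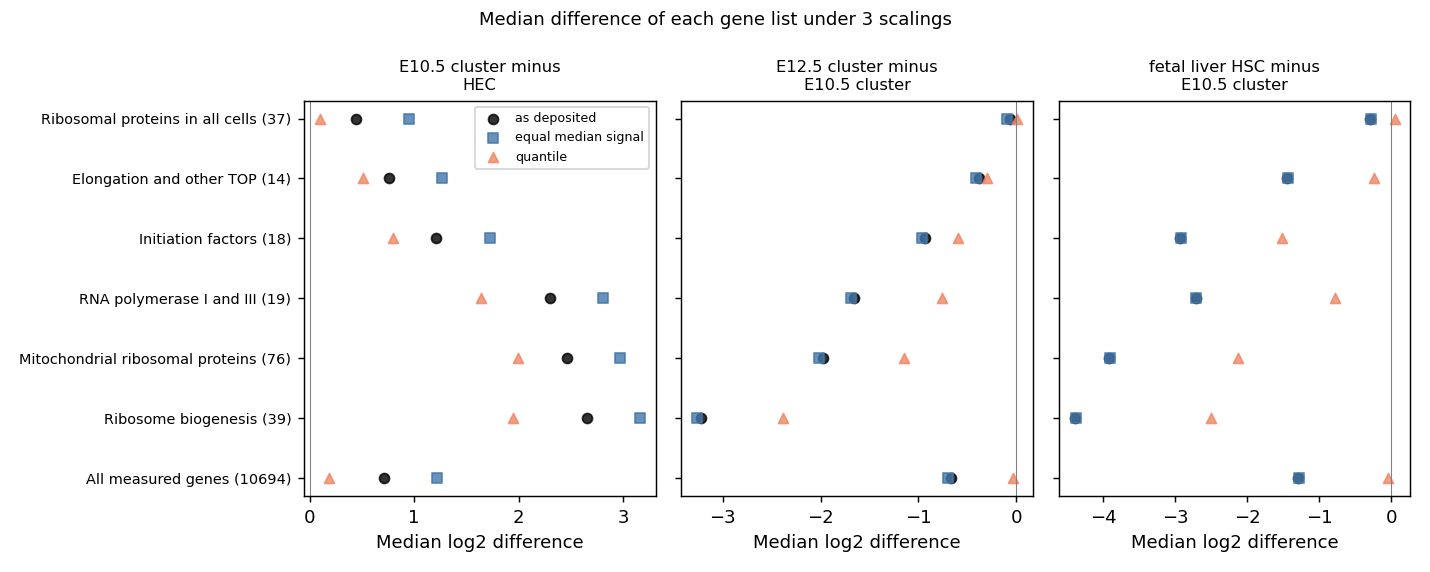
Median log2 difference of each gene list in 3 comparisons, as deposited (circles), with all cells brought to equal median signals (squares) and after quantile normalization (triangles). As deposited, the 37 ribosomal proteins, selected as above background in all cells, lie at 0.44, -0.06 and -0.29, and the ribosome biogenesis list lies at 2.65, -3.22 and -4.39; the ribosomal protein medians turn to 0.01 and 0.05 under quantile normalization in the 2 right panels.

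The acidic stalk proteins recruit the translation factors to the large subunit. Rplp0, which anchors the stalk, averaged 15.36 ± 0.79 in EC, 15.54 ± 0.33 in HEC and 16.13 ± 0.25 in E10.5 cluster cells, then 16.10 ± 0.25 in E12.5 cluster and 16.18 ± 0.22 in fetal liver HSC, and Rplp2 15.37 ± 0.76, 15.62 ± 0.27, 16.002 ± 0.30, 16.04 ± 0.16 and 16.12 ± 0.19. The 3 later populations lay within 1 SD of each other in both, but each gene has 1 probe set, in the bright range in which no constant member was lower by 1 or more in HSC. Rpsa, a small-subunit protein also known as the laminin receptor, averaged 13.43 ± 0.63 in fetal liver HSC, against 14.68 ± 0.42 in E10.5 cluster cells. Of the genes mutated in human Diamond-Blackfan anemia, 6 were followed (Rps7, Rps10, Rps19, Rps24, Rps26 and Rpl11) and had medians of 0.71 for HEC minus EC and 0.47 for E10.5 cluster minus HEC. Relative to E10.5 cluster cells, their medians were -0.04 at E12.5 and -0.11 in fetal liver HSC. Of these 6, only Rpl11 in HEC minus EC (1.21) reached 1 in these 4 comparisons. Other members are known as anemia genes too, and for fetal liver HSC minus E10.5 cluster Rpl27 differed by -1.33, Rps27 by -1.51, Rps28 by 0.16, Rps29 by 0.15 and Rpl35 by -0.02. All these values are on the brightest probe sets. The lowest difference on another probe set above background in all cells was -0.88 for Rps7, -0.83 for Rps10 and 0.09 for Rps24. It was -1.91 for Rpl27, -0.61 for Rps28, -0.40 for Rps29 and -0.10 for Rpl35. Rps19 averaged 15.12 ± 0.56 in fetal liver HSC, against 15.46 ± 0.38 in E10.5 cluster cells, and Rpl11 14.46 ± 0.55, against 15.33 ± 0.40.

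Some core genes have a relative named after them. Rpl22 and Rpl22l1, which in mice replace each other in the ribosome, were both above background in every cell. Because 2 probe sets cannot be set against each other in level, only the change of their difference is read: Rpl22l1 minus Rpl22 was -1.07 ± 0.48 in EC, -0.51 ± 0.95 in HEC and -0.29 ± 0.24 in E10.5 cluster cells, then -0.48 ± 0.63 in E12.5 cluster and -0.75 ± 0.60 in fetal liver HSC. The SDs overlap between neighbouring populations, and the change depends on the probe set: for fetal liver HSC minus E10.5 cluster Rpl22l1 differed by -1.30, and Rpl22 by -0.83 on its brightest and by -1.33 on its next probe set. Rpl7l1, which is known to act in ribosome assembly, was lower in fetal liver HSC than in E10.5 cluster cells by 2.65 (1.21 after quantile normalization), where Rpl7 differed by 0.01, -0.21 and -1.31 on its 3 probe sets. Rps4l differed there by -3.33 and Rps27l by -2.52, and Rps4x by 0.07 on its 1 probe set above background, a bright one. Rps27 itself was dim, above background in 22 of 84 cells, and gives no firm pattern.

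From cell to cell the constant members varied together, and less than the 142 other constant genes, which were dimmer. The SD over cells within populations had a median of 0.54 over the 37 members, between 0.22 for Rps29 and 0.88 for Rps15, against 1.07 over the 142 other constant genes. The lowest SD among those others was 0.24, for Tpt1. The 2 sets were not matched for signal: the members' mean lay above that of the others by 2.07 in HEC to 3.19 in fetal liver HSC. The part of signal level in the lower SD was not tested. The median correlation between 2 of the 37 members was 0.87 in EC, 0.79 in HEC and 0.78 in E10.5 cluster cells, then 0.57 in E12.5 cluster and 0.27 in fetal liver HSC (7, 7, 28, 16 and 26 cells), beside 0.64, 0.54, 0.48, 0.50 and 0.25 between 2 of the other genes. The members thus stood together more than other genes did in the 3 earlier populations, and hardly so in fetal liver HSC. All genes of a cell share its array and amplification, and these values are descriptions only. The mean over the 37 members correlated with that of the 142 other genes at 0.93, 0.92, 0.72, 0.63 and 0.59 in the same populations. With the number of probe sets above background it correlated at 0.66, 0.57, 0.19, 0.57 and 0.25. The mean over all 47 members, which includes those not found in every cell, correlated with that number at 0.72, 0.72, 0.52, 0.86 and 0.35. Of 1889 genes found in at least 50% of the cells of each population, those whose level went most with the mean over the 47 members, by the average of the 5 within-population correlations, were Hnrnpa2b1 (0.84), Atp5pb (0.84), Oaz1 (0.82), Snrpf (0.80), Hnrnpc (0.79), Cct5 (0.79), Eif3k (0.79), Pabpc1 (0.78), Atp5b (0.77) and Nme2 (0.77).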

How the data were processed

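The authors deposited log2 expression values; the submitters' processing notes name GCRMA and the affy package, whose versions were not given in the sources used here. Values ran from 2.19 to 17.86. GCRMA models background from the sequence of each probe, and the arrays were not made equal in distribution. The values were used as deposited. The control probe sets held shared values (12.64 and 9.50) together in 61 of 84 cells, so arrays look scaled to controls, by a step that no source used here states. Of 45101 probe sets, 34958 had 1 symbol in the platform annotation and 932 had several, and only the first kind was used. RefSeq (GRCm38.p6) names held all 50 members and gave the promoters. Arrays give no counting depth, and their number limits the precision.

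A value over 5 was above background, a gene above it in at least 3 cells was measured, and a difference of mean log2 values of 1 or more was counted. Fetal liver HSC arrays 20 and 21 were averaged, since they correlated above 0.95. The members and lists were chosen with earlier results of these data known. Named members were, per comparison, up to 5 with the largest difference each way among those found in 50% or more of the cells where the mean was higher, the stalk proteins, Rpsa, paralog pairs, Diamond-Blackfan anemia genes, members found in under 50% of cells, those of highest and lowest SD and those whose probe sets disagreed; other genes were the 10 that varied most like the members. Further examples, such as Rps2, Rps18, the printed promoters and the genes named from the lists, were chosen after their values were seen, as was the minimum run length. Alternatives were quantile normalization, equal median signals, a threshold of 6, other probe set choices, medians over cells, and leaving out cells; they are given in the closing section. The calculation of the differences was checked on simulated data. Python 3.11.15, numpy 2.4.6, pandas 2.3.3 and matplotlib 3.10.9 were used.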

Additional observations from a re-analysis of the deposited data

Results flagged for a closer look

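In EC and HEC, each with 7 cells, the gap-to-range criterion was applied 106 times, 94 times to a measured member in a population and 12 times to a per-cell summary. It found 1 cell apart from the other 6 in 13 of these, all for members. Chance flags about 1 in 20 groups that are independent and normally spread. The members share the same cells and vary together, and some are at background in most cells. The 13 can therefore not be set against that rate. In EC 4 the level was low for Rpl7 (9.67, others 13.62 to 15.79), Rplp2 (13.80, others 15.17 to 16.17), Rps20 (14.25, others 15.44 to 16.13) and Rps28 (12.64, others 14.96 to 15.99). Rpl19 was low in EC 2 at 8.14, where the other EC lay between 12.90 and 15.55. Single EC stood high for Rpl12 (10.16 in EC 7, the others at most 2.43) and Rpl14 (13.07 in EC 3, the cell with Dppa3, Pou5f1 and Nanog, the others at most 3.31). Among HEC, cell 7 was low for Rpl22 (13.64, others from 14.66), Rps14 (13.48, others from 14.56) and Rps26 (14.42, others from 15.08), and cell 4 for Rpl22l1 (12.45, others from 14.09) and Rpl4 (14.47, others from 15.62). Rps19bp1 was high in HEC 5 alone, at 8.17, the others at most 2.84. EC 2, EC 4, HEC 4 and HEC 7 are also the lowest 2 cells of their populations in the mean over the 37 constant members.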

How the results depend on the processing

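No paired analysis was possible because the replicate numbers only number the cells and no difference comes from a test. Of the recomputed values other than those that leave out 1 EC or HEC cell, 222 stayed close, 60 moved and 7 changed sign; the cause was not tested. Members' medians changed sign for HEC minus EC with equal median signals (-0.36), for E12.5 minus E10.5 cluster without the 6 cells against their sort (0.00902), for fetal liver HSC after quantile normalization (0.0704 against E12.5 cluster, 0.0409 against E10.5 cluster, 0.17 against HEC), and for fetal liver HSC minus HEC with equal medians (0.25) and over members in all cells (0.13); 2 more moved by over 1 SD over cells, to 0.97 for E10.5 cluster minus HEC with equal medians and -0.29 for fetal liver HSC minus E10.5 cluster over members in all cells. For HEC minus EC the median of 0.62 was 0.08 after quantile normalization and 0.07 without EC 2 and EC 4, within 1 SD over cells. Counts of members higher and lower by 1 or more that moved follow. For HEC minus EC, higher: 4 quantile, 5 equal medians, 8 by median over cells, 20 without the 6 cells, 21 in the cells whose 2 controls held the shared values, 5 without EC 2 and EC 4, 6 over members in all cells; lower: 3 quantile, 2 equal medians, 2 without EC 2 and EC 4, and 0 by median over cells, without Rps19bp1 and the paralogs, and over members in all cells. For E10.5 cluster minus HEC, higher: 21 equal medians, 8 with the mean of all probe sets and without _x_at or _s_at, 3 without Rps19bp1 and the paralogs, 1 over members in all cells; lower: 5 quantile, 1 equal medians, 0 over members in all cells. For E12.5 minus E10.5 cluster, higher: 2 quantile; lower: 5 without Rps19bp1 and the paralogs, 0 over members in all cells. For fetal liver HSC minus E12.5 cluster, higher: 4 quantile, 2 without _x_at or _s_at and with both controls, 0 by median over cells and over members in all cells; lower: 3 quantile, 8 both controls. For fetal liver HSC minus E10.5 cluster, higher: 2 quantile; lower: 5 quantile, 11 over members in all cells. For fetal liver HSC minus HEC, higher: 4 quantile, 13 equal medians, 2 both controls, and 0 by median over cells, with arrays 20 and 21 apart, without Rps19bp1 and the paralogs, and over members in all cells; lower: 4 quantile, 2 over members in all cells. The mean over members per cell moved with all probe sets averaged (11.20 EC, 12.10 HEC, 12.69 E10.5 cluster, 12.15 E12.5 cluster, 11.59 fetal liver HSC), without _x_at or _s_at (12.34 HEC, 13.03, 12.46 and 11.94), with all 50 members (12.67 HEC, 13.25, 12.83 and 12.36) and after quantile normalization (13.46 E10.5 cluster, 13.42 fetal liver HSC). Leaving out 1 EC or HEC cell at a time gave, for HEC minus EC, medians of 0.33 to 0.83 with 6 to 20 higher and 0 to 1 lower, for E10.5 cluster minus HEC 0.36 to 0.50 with 4 to 5 higher and 0 to 3 lower, for fetal liver HSC minus HEC -0.41 to -0.10 with 0 to 2 higher and 7 to 9 lower, and means of 12.20 to 12.71 in EC and 13.20 to 13.44 in HEC. The alternatives without EC 2 and EC 4, without Rps19bp1 and the paralogs, and over members in all cells were chosen after seeing the data. Quantile normalization makes the brightest values of all cells equal by construction, so it cannot show a shared change of the brightest probe sets. Rpl27a and Rpl39, on dim probe sets, are among the members counted after quantile normalization in all 6 comparisons.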
